A study of Mus musculus with 9 samples.

Results

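Transcripts of 10 genes with which myeloid cells sense microbes and tissue damage were examined in the mouse colon. They are the Toll-like receptors *Tlr2* and *Tlr4*, their co-receptor *Cd14* and adaptor *Myd88*, the formyl peptide receptors *Fpr1* and *Fpr2*, the C-type lectin receptors *Clec4d*, *Clec4e* and *Clec7a*, and *Trem1*. These genes were taken by symbol from a table of 27719 genes and loci, and all 10 were found. C57BL/6J mice were assigned to a control, a DSS or a DSS + EA group, with 3 mice and 3 libraries in each, and their age was not given in the sources used here. The polymer dextran sodium sulfate (DSS) damages the epithelium of the colon, and it was drunk at 2.5% for 7 days in the DSS and DSS + EA groups, while control mice drank distilled water. Electroacupuncture (EA), a weak current passed through needles, was applied in the DSS + EA group only, at ST36, an acupoint of the hind limb, on both sides, with sessions of 30 minutes (2 Hz, 0.2 mA) on each of 5 days that followed the first 5 days of modeling. Mice of the control and DSS groups were held for the same time without needles, so needling and current cannot be told apart. Full-length cDNA of colon RNA was read on an Oxford Nanopore instrument, and between 2627695 and 4235576 reads were counted on genes in each mouse.

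Toll-like receptors sit on the cell surface or in endosomes and recognize microbial molecules such as lipoproteins, lipopolysaccharide and nucleic acids, and most of them signal through *Myd88* to NF-kB. Formyl peptide receptors are G protein-coupled receptors that steer neutrophils toward peptides released by bacteria and by damaged mitochondria. C-type lectin receptors and TREM receptors are coupled to *Syk* kinase through a tyrosine motif called ITAM, carried either by the receptor or by an adaptor such as *Fcer1g* or *Tyrobp*, and in the inflamed gut they are known mainly from neutrophils, monocytes and macrophages.

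The promoters of 5 genes are shown because these genes changed together in the comparisons below, and 2 pairs of them are neighbors in the genome. *Clec4d* (chr6:123262111-123275265, plus strand) and *Clec4e* (chr6:123281789-123289870, minus strand) are 6523 bases apart, with 0 protein-coding genes between them. *Fpr1* (chr17:17876471-17883940, minus strand) and *Fpr2* (chr17:17887824-17893952, plus strand) are 3883 bases apart, also with 0 between them, and *Trem1* (chr17:48232768-48246924, plus strand) is on the same chromosome. These positions are those of GENCODE M21 on build GRCm38. The 250 bases before the RefSeq start site (build GRCm38.p6) are printed on the strand of the gene, 5′ to 3′, in lower case, and capitals mark matches on either strand to the letters GAGGAA, a core bound by PU.1, or TTNNGCAA, a C/EBP motif.
Fpr1 promoter, chr17:17883940-17884189, minus strand: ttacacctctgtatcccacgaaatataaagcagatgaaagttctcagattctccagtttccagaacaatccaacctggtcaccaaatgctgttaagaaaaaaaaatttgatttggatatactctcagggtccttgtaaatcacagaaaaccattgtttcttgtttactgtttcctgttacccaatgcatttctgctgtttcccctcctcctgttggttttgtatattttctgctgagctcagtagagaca
Fpr2 promoter, chr17:17887574-17887823, plus strand: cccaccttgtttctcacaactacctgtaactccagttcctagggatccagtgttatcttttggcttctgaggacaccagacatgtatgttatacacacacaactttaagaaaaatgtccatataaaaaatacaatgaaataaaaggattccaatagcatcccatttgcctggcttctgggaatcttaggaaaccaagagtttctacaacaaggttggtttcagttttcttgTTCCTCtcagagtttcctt
Clec4d promoter, chr6:123261857-123262106, plus strand: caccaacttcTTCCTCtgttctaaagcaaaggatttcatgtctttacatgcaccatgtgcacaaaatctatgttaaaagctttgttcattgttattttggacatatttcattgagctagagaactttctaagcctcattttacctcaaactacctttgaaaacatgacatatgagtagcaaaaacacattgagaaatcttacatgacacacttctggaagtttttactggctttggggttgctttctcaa
Clec4e promoter, chr6:123289872-123290121, minus strand: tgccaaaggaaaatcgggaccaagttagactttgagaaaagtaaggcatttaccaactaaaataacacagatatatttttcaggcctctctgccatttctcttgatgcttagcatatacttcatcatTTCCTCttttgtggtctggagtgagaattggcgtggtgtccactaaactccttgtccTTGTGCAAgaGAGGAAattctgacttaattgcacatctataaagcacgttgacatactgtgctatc
Trem1 promoter, chr17:48232489-48232738, plus strand: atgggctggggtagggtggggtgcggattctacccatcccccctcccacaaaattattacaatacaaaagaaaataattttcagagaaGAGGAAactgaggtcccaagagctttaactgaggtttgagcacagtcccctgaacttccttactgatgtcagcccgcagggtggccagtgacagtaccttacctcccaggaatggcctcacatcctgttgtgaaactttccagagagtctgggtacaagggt
Windows were found for 8 of the 10 genes in the RefSeq table, all but *Tlr4* and *Cd14*. The PU.1 letters were in the window of 5 of these 8 genes (*Fpr2*, *Clec4d*, *Clec4e*, *Clec7a* and *Trem1*) and in 23.3% of all 32851 windows of the table. The C/EBP letters were in 1 of the 8, *Clec4e*, from position -66 to -59 before its start, against 9.56% of all windows. An NF-kB motif was in 1 of the 8, *Tlr2*, from position -172 to -163, against 5.0% of all windows, and the AP-1 letters TGANTCA were in 0 of the 8, against 6.75%. No motif overlapped another in these windows. The matches describe letters and were not tested as binding sites.

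Before the genes were compared, the libraries were checked against their labels. The 10 epithelial markers, among them *Epcam*, *Cdh1* and *Krt20*, were counted in every mouse. However, the 9 pancreatic acinar markers summed to 29348 CPM in DSS + EA mouse 2 and 14540 CPM in DSS + EA mouse 3, against 518 CPM in DSS + EA mouse 1 and between 42.4 and 262 CPM in the other 6 mice. CPM are counts scaled to a common library total, after adjustment of the totals by the TMM method of edgeR. Leaving out the 27 genes that reached 300 counts in a DSS + EA mouse but never passed 10 in a mouse of the other groups, most of them acinar enzymes, changed no call of the 10 receptor genes in any of the 3 comparisons. Among the DSS mice, mouse 3 had the highest CPM for all 10 receptor genes and mouse 1 the lowest for 9 of them. Calls of the 10 genes without 1 of these mice, or their number, are therefore given where they changed.

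The first question was how DSS changed these genes. In edgeR's quasi-likelihood test, 9 of the 10 genes were higher with DSS than in controls at a Benjamini-Hochberg adjusted p under 0.05, and 0 were lower, at an unadjusted P under 0.05 and in DESeq2 as well. Only *Tlr4* did not pass. Of all 12566 genes tested, 21.5% were higher and 19.5% lower at this threshold. With the thresholds for DEGs (P under 0.01 without adjustment and a log2 fold change above 2.5 or below -2.5), 6 of the 10 genes were higher DEGs, against 6.62% of genes tested. In 9 of the 10 genes, all 3 DSS mice lay above all 3 control mice, which was true of 26.2% of genes tested. The median log2 fold change of the 10 genes was 5.21, or 3.94 with 5 nearly silent genes set at 3 counts in each control mouse, and that of all genes tested was 0.02. Those 5 genes (*Fpr1*, *Fpr2*, *Clec4d*, *Clec4e* and *Trem1*) had at most 3 counts in every control mouse and passed the filter on low counts through the mice in which they are high. They therefore had to differ, and their number carries no weight of its own.

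The second question was how mice with EA differed from mice with DSS alone. The same 5 genes, *Fpr1*, *Fpr2*, *Clec4d*, *Clec4e* and *Trem1*, were lower with EA than with DSS alone at an adjusted p under 0.05 (edgeR), and 0 of the 10 were higher. At an unadjusted P under 0.05 there were 6, with *Cd14* added, and DESeq2 called 4, without *Fpr1*. Of all genes tested, 18.3% were lower and 17.2% higher. As DEGs, 4 of the 10 genes were lower, against 3.5% of genes tested, and in 4 of the 10 all DSS + EA mice lay below all DSS mice, against 23.3%. Their median log2 fold change was -2.0, beside -0.02 for all genes tested. It lay between *Cd14* (-1.06) and *Fpr1* (-2.94), which were both at -0.66 without DSS mouse 3, so its size rested on that mouse. *Fpr2* and *Trem1* would not have passed the filter on low counts without the DSS mice, so the filter favored a fall in them, and their number carries no weight here. The 3 DSS mice are shared by both comparisons, so that a gene high in these mice by chance moves in opposite directions in them.

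**Figure D1:**
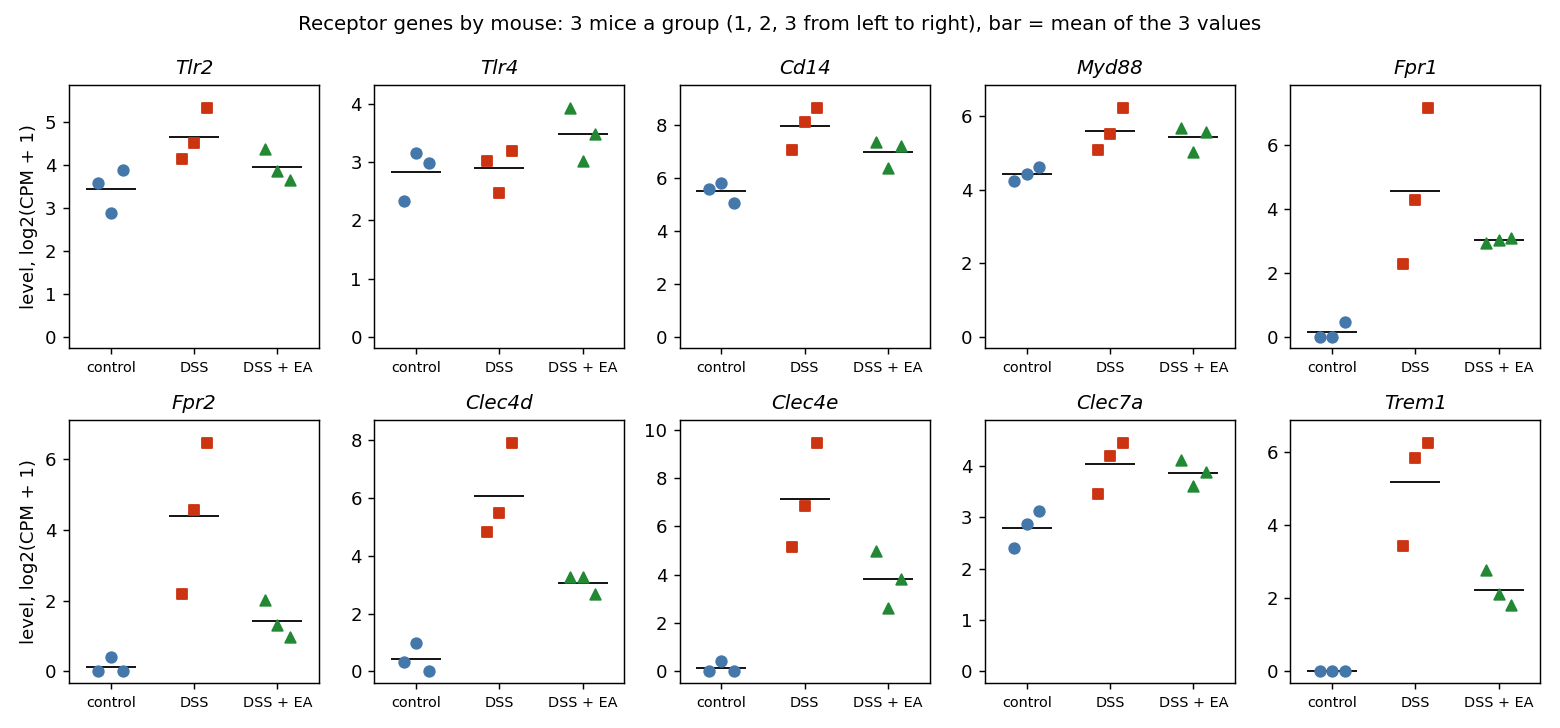
Level of each receptor gene in the 9 mice, as log2(CPM + 1) on the vertical axis, with 1 point for each mouse (1, 2 and 3 from left to right) and a bar at the mean of each group of 3. *Fpr1*, *Fpr2*, *Clec4d*, *Clec4e* and *Trem1* were at or near 0 in control mice and highest in DSS mice 2 and 3, whereas the groups overlapped for *Tlr4*.

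*Tlr2* recognizes bacterial lipoproteins together with *Tlr1* or *Tlr6*, and its gene is at chr3:83836272-83841767 (minus strand). Its level was 10.9, 6.32 and 13.8 CPM in the control mice, 16.4, 21.5 and 39.0 CPM in the DSS mice, and 19.5, 13.4 and 11.4 CPM in the DSS + EA mice. Every DSS mouse lay above every control mouse, while the DSS + EA mice overlapped with both groups. The log2 fold change was 1.31 (standard error, SE, 0.39, adjusted p = 0.0233, edgeR) between the DSS and control groups, a 2.48-fold rise. This call was lost without control mouse 1 (adjusted p = 0.0661), control mouse 2 (0.0904) or DSS mouse 3 (0.0788, edgeR adjusted p in each case). Between the DSS + EA and DSS groups, the log2 fold change of *Tlr2* was -0.79 (SE 0.38, adjusted p = 0.131, edgeR), and its 95% interval ran from -1.64 to 0.06.

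*Tlr4*, the receptor for lipopolysaccharide, is at chr4:66827584-66930284 (plus strand). It had 4.07, 7.98 and 6.90 CPM in the control mice, 7.08, 4.56 and 8.11 CPM in the DSS mice, and 14.3, 7.10 and 10.2 CPM in the DSS + EA mice. The control and DSS mice overlapped. The highest value of *Tlr4* was in DSS + EA mouse 1, and the DSS + EA group also overlapped with both others. Its log2 fold change was 0.06 (95% interval -0.79 to 0.92, adjusted p = 0.913, edgeR) with DSS, and 0.70 (95% interval -0.13 to 1.52, adjusted p = 0.164) between the DSS + EA and DSS groups. At 16 to 47 counts per mouse, a change of *Tlr4* within these intervals was not detectable.

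*Cd14* binds lipopolysaccharide and passes it to *Tlr4*. Its level was 47.0, 55.5 and 32.2 CPM in the control mice, 133, 278 and 399 CPM in the DSS mice, and 162, 81.8 and 145 CPM in the DSS + EA mice. All DSS mice and all DSS + EA mice lay above the control mice, and the DSS + EA mice overlapped with DSS mouse 1 only. *Cd14* rose 6.0-fold with DSS (log2 fold change 2.59, SE 0.42, adjusted p = 0.0012, edgeR). Its log2 fold change between the DSS + EA and DSS groups was -1.06 (SE 0.40, adjusted p = 0.0612), and it passed in 1 of 9 fits that left out 1 mouse. It was -1.35 without DSS mouse 1 (adjusted p = 0.00728) and -0.66 without DSS mouse 3 (adjusted p = 0.212, edgeR).

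*Myd88*, the adaptor of most Toll-like receptors and of the receptors for interleukin 1 family cytokines, is at chr9:119335934-119341411 (minus strand). It had 17.8, 20.6 and 23.4 CPM in the control mice, 32.5, 44.5 and 73.7 CPM in the DSS mice, and 50.2, 31.7 and 46.0 CPM in the DSS + EA mice. Both groups that drank DSS lay above the control mice, and they overlapped with each other. *Myd88* rose 2.44-fold with DSS (log2 fold change 1.29, SE 0.31, adjusted p = 0.00938, edgeR), and its log2 fold change between the DSS + EA and DSS groups was -0.23 (95% interval -0.91 to 0.45, adjusted p = 0.575). The gene overlaps *Acaa1a* on the opposite strand, which had 1646 counts over the 9 mice against 1130 for *Myd88*. The use of strand in counting is not given in the sources used here, so reads of *Acaa1a* and *Myd88* cannot be told apart.

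*Fpr1* is the classical receptor for bacterial formyl peptides. It had 0, 0 and 1 reads in the control mice, 12, 84 and 458 reads in the DSS mice, and 22, 19 and 24 reads in the DSS + EA mice, which correspond to 3.86, 18.3 and 143 CPM with DSS and 6.70, 7.10 and 7.61 CPM with DSS + EA. The DSS mice spread over 37.0-fold, whereas the DSS + EA mice lay within 1.14-fold of each other, between DSS mice 1 and 2. Summed over the mice of a group and scaled to library size, the counts with DSS were 485 times those of the control group, with an exact 95% interval of 86.7 to 19184 that covers counting error only. In edgeR, *Fpr1* rose with DSS (adjusted p = 0.00327), with a fitted log2 fold change of 8.58 that became 6.27 when the prior count was raised to 2, 6.31 without DSS mouse 3 and 10.51 without control mouse 3. Between the DSS + EA and DSS groups its log2 fold change was -2.94 (SE 1.00, adjusted p = 0.0448, edgeR). This call rested on DSS mouse 3: without it the log2 fold change of *Fpr1* was -0.66 (adjusted p = 0.40). It held in only 2 of 9 fits that left out 1 mouse and in DESeq2 the adjusted p was 0.0738.

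*Fpr2* responds to a wider range of peptides and to lipid mediators. Its counts were 0, 1 and 0 in the control mice, 11, 104 and 281 in the DSS mice, and 10, 4 and 3 in the DSS + EA mice, or 3.54, 22.6 and 87.7 CPM with DSS and 3.04, 1.49 and 0.95 CPM with DSS + EA. The DSS + EA mice all lay below the DSS mice, although DSS + EA mouse 1 came close to DSS mouse 1. *Fpr2* rose with DSS (adjusted p = 0.00238, edgeR), and the summed counts were 347 times those of the control group (exact 95% interval 61.8 to 13722). The fitted log2 fold change was 8.05, and it was 6.55 without DSS mouse 3 and 9.95 without control mouse 2. *Fpr2* fell 20.03-fold between the DSS and DSS + EA groups (log2 fold change -4.32, SE 1.02, adjusted p = 0.0101, edgeR), and without DSS mouse 3 by 2.82 on the log2 scale (adjusted p = 0.0242). The coding sequences of *Fpr1* and *Fpr2* were 76.4% identical over 1001 aligned bases, with a longest identical run of 50 bases, and how the counting divided reads between similar genes is not given in the sources used here. The ratio of *Fpr1* to *Fpr2* counts was 1.09, 0.81 and 1.63 in the DSS mice and 2.2, 4.75 and 8.0 in the DSS + EA mice, so that it was higher in every DSS + EA mouse. The smallest p that an exact two-sided test of 3 against 3 mice can give is 0.1, and this ratio was not tested.

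*Clec4d*, also known as MCL, and *Clec4e*, also known as Mincle, bind glycolipids of microbes and signal through the adaptor *Fcer1g*. *Clec4d* had 1, 3 and 0 reads in the control mice, 86, 203 and 773 in the DSS mice (27.7, 44.1 and 241 CPM), and 28, 23 and 17 in the DSS + EA mice (8.52, 8.59 and 5.39 CPM). The 3 groups did not overlap. *Clec4d* rose with DSS (adjusted p = 0.000596, edgeR), with summed counts 232 times those of the control group (exact 95% interval 90.5 to 854), and it fell 13.8-fold in the DSS + EA group (log2 fold change -3.79, SE 0.79, adjusted p = 0.00598). Without DSS mouse 3, the log2 fold change of *Clec4d* with DSS was 6.3 in place of 7.83, and its fall with EA was by 2.26 on the log2 scale (adjusted p = 0.00438). Its rise was 9.07 on that scale without control mouse 2.

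*Clec4e*, which also detects a protein released by dying cells, had 0, 1 and 0 reads in the control mice, 107, 524 and 2262 in the DSS mice (34.4, 114 and 706 CPM), and 101, 14 and 41 in the DSS + EA mice (30.7, 5.23 and 13.0 CPM). DSS + EA mouse 1 lay just below DSS mouse 1, and the groups did not overlap. The rise with DSS (adjusted p = 0.000971, edgeR) corresponded to summed counts 2532 times those of the control group (exact 95% interval 454 to 100030). The log2 fold change fitted to this rise was 10.96, with 9.03 without DSS mouse 3 and 12.86 without control mouse 2. *Clec4e* fell 17.2-fold in the DSS + EA group (log2 fold change -4.11, SE 1.03, adjusted p = 0.013, edgeR). The fall was by 2.17 on the log2 scale without DSS mouse 3 (adjusted p = 0.0338) and did not pass without DSS + EA mouse 3 (log2 fold change -3.98, adjusted p = 0.0547). There were 1.24, 2.58 and 2.93 counts of *Clec4e* for each count of *Clec4d* in the DSS mice and 3.61, 0.61 and 2.41 in the DSS + EA mice, which overlapped. Their coding sequences shared runs of at most 9 identical bases in the alignment.

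*Clec7a*, or dectin-1, is the receptor for fungal beta-glucan and carries its own tyrosine motif. It is at chr6:129461591-129472779 (minus strand) and is listed as a polymorphic pseudogene in GENCODE M21. It had 4.32, 6.32 and 7.66 CPM in the control mice, 9.97, 17.4 and 20.9 CPM in the DSS mice, and 16.4, 11.2 and 13.6 CPM in the DSS + EA mice. All mice that drank DSS lay above the control mice, and the DSS and DSS + EA mice were intermixed. *Clec7a* rose 2.67-fold with DSS (log2 fold change 1.42, SE 0.34, adjusted p = 0.00868, edgeR). With EA against DSS alone, the log2 fold change of *Clec7a* was -0.22 (95% interval -0.93 to 0.49, adjusted p = 0.607).

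*Trem1* amplifies inflammatory responses of neutrophils and monocytes and signals through *Tyrobp*. It had 0 counts in all 3 control mice, 30, 258 and 241 reads in the DSS mice (9.65, 56.1 and 75.2 CPM), and 19, 9 and 8 reads in the DSS + EA mice (5.78, 3.36 and 2.54 CPM). The 3 groups did not overlap. The mean CPM of *Trem1* in the DSS group was 48.4 times a floor of 3 counts in each control library, a ratio given without an interval. In edgeR *Trem1* rose with DSS with a fitted log2 fold change of 10.3 (adjusted p = 0.00101). It fell 11.9-fold in the DSS + EA group (log2 fold change -3.57, SE 0.74, adjusted p = 0.00842, edgeR), and this call held in all 9 fits that left out 1 mouse, with log2 fold changes between -4.02 and -3.07.

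**Figure D2:**
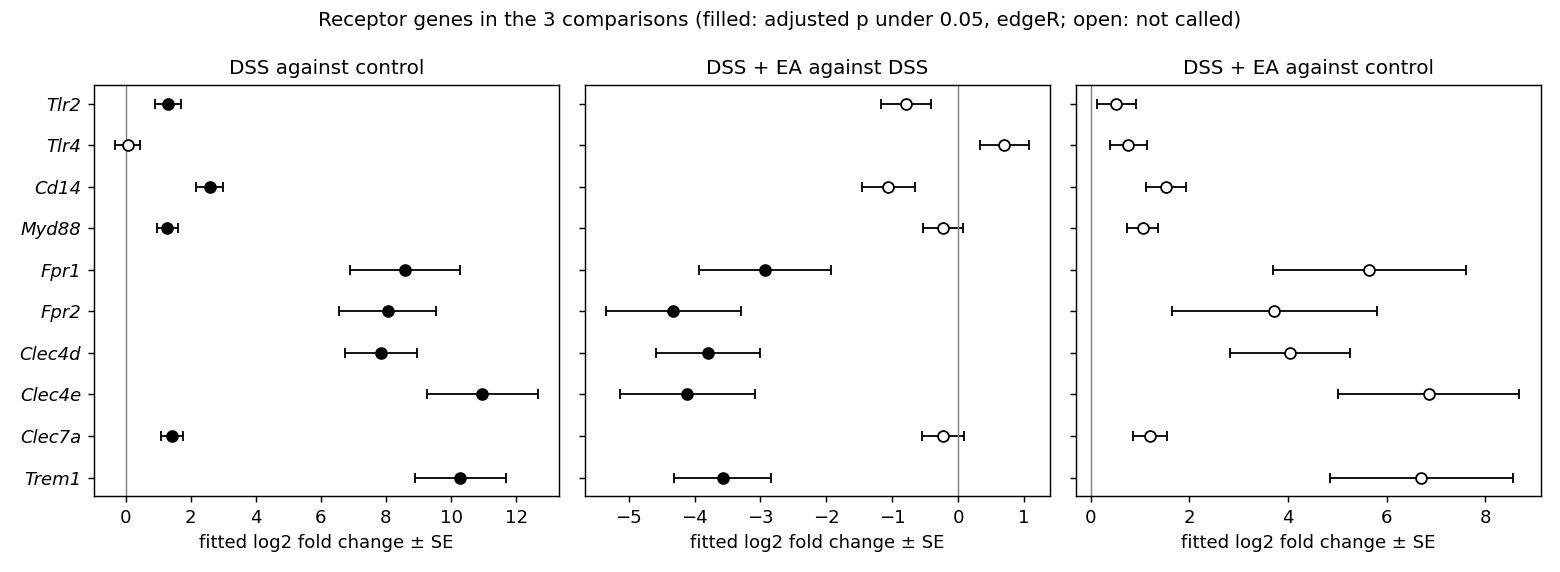
Fitted log2 fold change of each receptor gene with its SE (horizontal axis) in the 3 comparisons; filled points passed an adjusted p under 0.05 in edgeR and open points did not. Filled points were 9 in the first panel, all above 0, 5 in the second, all below 0, and 0 in the third.

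The third comparison was between the DSS + EA group and the control group. In edgeR 0 of the 10 genes passed an adjusted p under 0.05, although 7 had an unadjusted P under 0.05 and DESeq2 called 5 of them higher (*Cd14*, *Fpr1*, *Clec4d*, *Clec4e* and *Trem1*). The share of all genes at that unadjusted P was not counted. Of these 5, all but *Cd14* are nearly silent in control mice. DESeq2 called 703 of 22099 genes fitted, 80.1% of them higher. The number of receptor genes called depended on the fit. With only these 2 groups in the fit, edgeR called 6 of the 10 higher. In that fit 1149 of 11338 genes tested were called, 68.8% of them higher. Leaving out DSS mouse 1 gave 6 and leaving out DSS mouse 3 gave 5. In the fit of all mice, 3.0% of all genes tested were higher and 0.637% lower (edgeR). The 3 higher DEGs were *Clec4d*, *Clec4e* and *Trem1*, against 1.74% of genes tested, and all 3 are among the 5 genes that are nearly silent in control mice. In 8 of the 10 genes, all but *Tlr2* and *Tlr4*, every DSS + EA mouse lay above every control mouse, which was true of 18.0% of genes tested, and 5 of these 8 are the nearly silent genes. Their median log2 fold change was 2.63, or 1.36 with the 5 nearly silent genes set at 3 counts in each control mouse, and the median of all genes tested was 0.0018. The log2 fold change of *Cd14* was 1.53 (SE 0.41, adjusted p = 0.0754, edgeR), that of *Myd88* 1.05 (SE 0.31, adjusted p = 0.109) and that of *Clec7a* 1.19 (SE 0.34, adjusted p = 0.0988). All 3 passed in the fit of these 2 groups alone (adjusted p = 0.0134, 0.0169 and 0.0299, edgeR). The mean CPM of *Trem1* in the DSS + EA group was 4.02 times the same floor, and its fitted log2 fold change was 6.70 (adjusted p = 0.106, edgeR). For *Fpr2*, which had 10, 4 and 3 reads in the DSS + EA mice, the summed counts were 17.8 times those of the control group (exact 95% interval 2.79 to 745), with an adjusted p of 0.41 in edgeR.

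The 10 genes did not all follow one pattern over the 9 mice. Likeness was measured by the root mean square difference of log2 CPM, centered on each gene's mean, over the 9 libraries. Among the 10, *Myd88* and *Clec7a* were the most alike (0.16), followed by *Tlr2* and *Myd88* (0.40), while *Tlr4* and *Clec4e* differed the most (3.27). The neighboring genes *Clec4d* and *Clec4e* differed by 0.95, and *Clec4d* was nearer to *Trem1* (0.65). Among all other genes, those with the pattern nearest to *Myd88* were *Unc93b1* (0.18), which carries endosomal Toll-like receptors to their compartment, *Ccdc86* and *Gusb*. Nearest to *Cd14* were the complement genes *C1ra* (0.27) and *C1qb* (0.30), and *Pi16*. *Mcemp1* was nearest to *Fpr1* (0.40), with *Sirpb1c* also near, whereas *F10* (0.40) and *Alox5ap* (0.45), needed for leukotriene synthesis, were nearest to *Fpr2*, with *Asprv1* next. *Clec4d* was closest to *Gm49339* (0.59), *Wfdc17* and *Timp1*, and *Clec4e* to *Il1r2* (0.75), the interleukin decoy receptor, *Retnlg* and *Wfdc21*. *Trem1* was closest to the neutrophil chemokine gene *Cxcl3* (0.43), which also had 0 CPM in control mice, then to *Asprv1* and *Retnlg*. *Tlr2* lay nearest to *Hps3* (0.27), *Smpdl3b* and *Nle1*, *Tlr4* to *Dtwd1* (0.21), *Exoc4* and *Zc3hav1*, and *Clec7a* to *Rap2c* (0.19), *Mtap* and *Gusb*.

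Genes that act with these receptors were then examined by role. Counts of called genes in these lists cover only members that passed the filter on low counts, which needs a level of 3.095 CPM, here per total count, in at least 3 libraries. Genes under this level in every control mouse were tested through the other groups, so a rise from control was favored in *Tlr13*, *Lbp*, *Ptafr*, *Clec5a*, *Clec10a*, *Trem2*, *Trem3*, *Treml2* and *Vav1*. Of these, *Tlr13*, *Ptafr*, *Clec5a*, *Trem2* and *Trem3* would not have passed without the DSS mice, which favored a fall with EA as well. They stand beside 21.5% of all genes tested that were higher and 19.5% that were lower with DSS, and 17.2% higher and 18.3% lower with EA against DSS alone. Of 11 other Toll-like receptor genes, 3 were tested, because the others had few counts. *Tlr13*, which detects bacterial ribosomal RNA and passed the filter through the DSS mice only, rose with DSS (log2 fold change 3.78, adjusted p = 0.00197, edgeR) and fell in the DSS + EA group (-2.55, adjusted p = 0.0099). *Tlr1* and *Tlr3* did not pass with DSS (log2 fold changes -0.70 and -0.48) and were higher with EA than with DSS alone by 0.89 and 1.83 (adjusted p = 0.0316 and 0.00647, edgeR). *Tlr6*, the partner of *Tlr2*, was not tested, and it had 2, 1 and 0 counts in control, 8, 29 and 39 in DSS, and 6, 4 and 2 in DSS + EA mice. *Tlr7*, also untested, had 2, 1 and 0 counts in control, 9, 25 and 35 in DSS, and 8, 5 and 4 in DSS + EA mice. Untested *Tlr12* went the other way with DSS, with 6, 6 and 4 counts in control, 2, 1 and 0 in DSS, and 10, 1 and 8 in DSS + EA mice. Among 4 co-receptors and ligand carriers, *Lbp*, the carrier of lipopolysaccharide in plasma, rose with DSS (4.44, adjusted p = 6.62e-05) and fell in the DSS + EA group (-1.73, adjusted p = 0.00386), where it was still above control (2.72, adjusted p = 0.0078, edgeR). *Ly86* did not pass with DSS (0.57) but exceeded both other groups in the DSS + EA mice. For *Ly96*, which holds lipopolysaccharide in *Tlr4*, the log2 fold changes were 0.01 with DSS and -0.01 with EA against DSS alone, and for *Cd36* they were 0.42 and -0.54. Neither passed.

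Of 9 tested adaptors and kinases, 2 rose with DSS, a share near that of all genes tested. They were *Traf6* (log2 fold change 2.17, adjusted p = 0.00102) and *Irak1* (0.84, adjusted p = 0.032, edgeR), while *Tab2* had 1.08 and did not pass. Between the DSS + EA and DSS groups, *Traf6* (-1.92), *Irak1* (-1.14) and *Tab2* (-1.23) fell and *Irak4* rose (1.03, adjusted p = 0.00597, edgeR). Of 6 tested inhibitors of Toll-like receptor signaling, 4 rose with DSS, including *Tnfaip3* (2.65, adjusted p = 0.000176) and *Tnip1* (1.24, adjusted p = 0.00718, edgeR), and *Sigirr* fell (-1.63, adjusted p = 0.00958). In the DSS + EA group, the 4 inhibitors that rose with DSS, *Irak3*, *Tollip*, *Tnfaip3* and *Tnip1*, were lower than with DSS alone, and *Sigirr* (1.73) and *Tnip3* (1.29) were higher. *Irak3*, an inactive kinase of macrophages, had 20, 10 and 9 reads in the control mice, 15, 108 and 349 in the DSS mice and 12 to 14 in the DSS + EA mice. DSS mouse 1 (4.83 CPM) lay within the range of the control mice (3.32 to 5.08 CPM).

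Of 9 other formyl peptide and chemoattractant receptors, 5 members of the Fpr family had no count in any mouse. The 3 genes tested all rose with DSS, namely the complement receptors *C5ar1* (log2 fold change 3.64, adjusted p = 0.0024, edgeR) and *C3ar1* (2.50) and the receptor for platelet-activating factor, *Ptafr* (3.15). *C5ar1* (-2.08, adjusted p = 0.0228) and *Ptafr* (-2.06, adjusted p = 0.015) fell in the DSS + EA group, and *C3ar1* had -0.74 and did not pass. Of 13 other C-type lectin receptors of myeloid cells, 7 were tested and all 7 rose with DSS. The other 6 had few counts, and 3 of them were lower in every DSS mouse than in every control mouse. *Cd209a* had 8, 15 and 6 counts in control and 0, 1 and 1 in DSS mice, *Clec9a* had 9, 5 and 4 against 0, 0 and 1, and *Clec4b1* had 7, 4 and 2 against 0, 1 and 1. In 2 others every DSS mouse had a higher CPM than every control mouse, *Clec12a* with 2, 1 and 1 counts in control and 2, 23 and 9 in DSS mice, and *Clec1b* with 1, 1 and 0 against 4, 2 and 4. *Mrc1*, the mannose receptor (2.93, adjusted p = 0.000171), *Clec4a2* (4.65, adjusted p = 0.00085) and *Clec4n*, or dectin-2 (2.44, adjusted p = 0.00208, edgeR), had the smallest P. In the DSS + EA group 4 of the 7 fell, with *Mrc1* (-2.03), *Clec4a2* (-2.65) and *Clec4n* (-1.69) again having the smallest P. *Clec10a* was 0.19 and *Clec4a3* -0.55, and neither passed.

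Of 5 other TREM family genes, *Trem2*, *Trem3* and *Treml2* were tested and rose with DSS, and all 3 were under the filter level in every control mouse. *Trem3*, like *Trem1*, had 0 counts in all control mice, and it had 10, 70 and 178 in the DSS mice and 12, 4 and 11 in the DSS + EA mice. *Trem2* (-1.67, adjusted p = 0.0137) and *Trem3* (-3.05, adjusted p = 0.0374, edgeR) fell in the DSS + EA group, a direction the filter favored, while *Treml2* had -0.82 and did not pass. Of the adaptors through which *Clec4d*, *Clec4e* and *Trem1* signal, *Fcer1g* had 112, 95 and 119 counts in control, 896, 2378 and 5376 in DSS, and 484, 334 and 444 in DSS + EA mice. *Tyrobp* had 168, 152 and 114 in control, 817, 2718 and 4820 in DSS, and 457, 359 and 414 in DSS + EA mice, and for both genes the 3 groups did not overlap. *Tyrobp* rose by 4.11 and *Fcer1g* by 4.56 on the log2 scale with DSS (adjusted p = 0.00043 and 0.000431, edgeR). They fell in the DSS + EA group by 2.54 and 2.59 (adjusted p = 0.00478 and 0.00636). Of the 7 genes tested in this list, 6 rose with DSS, including *Vav1* (3.04) and *Bcl10* (0.74), and 5 fell in the DSS + EA group, including *Bcl10* (-0.73). *Syk* itself rose by 1.08 on the log2 scale with DSS (adjusted p = 0.0319) and had -0.88 between the DSS + EA and DSS groups (adjusted p = 0.0707, edgeR).

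**Figure D3:**
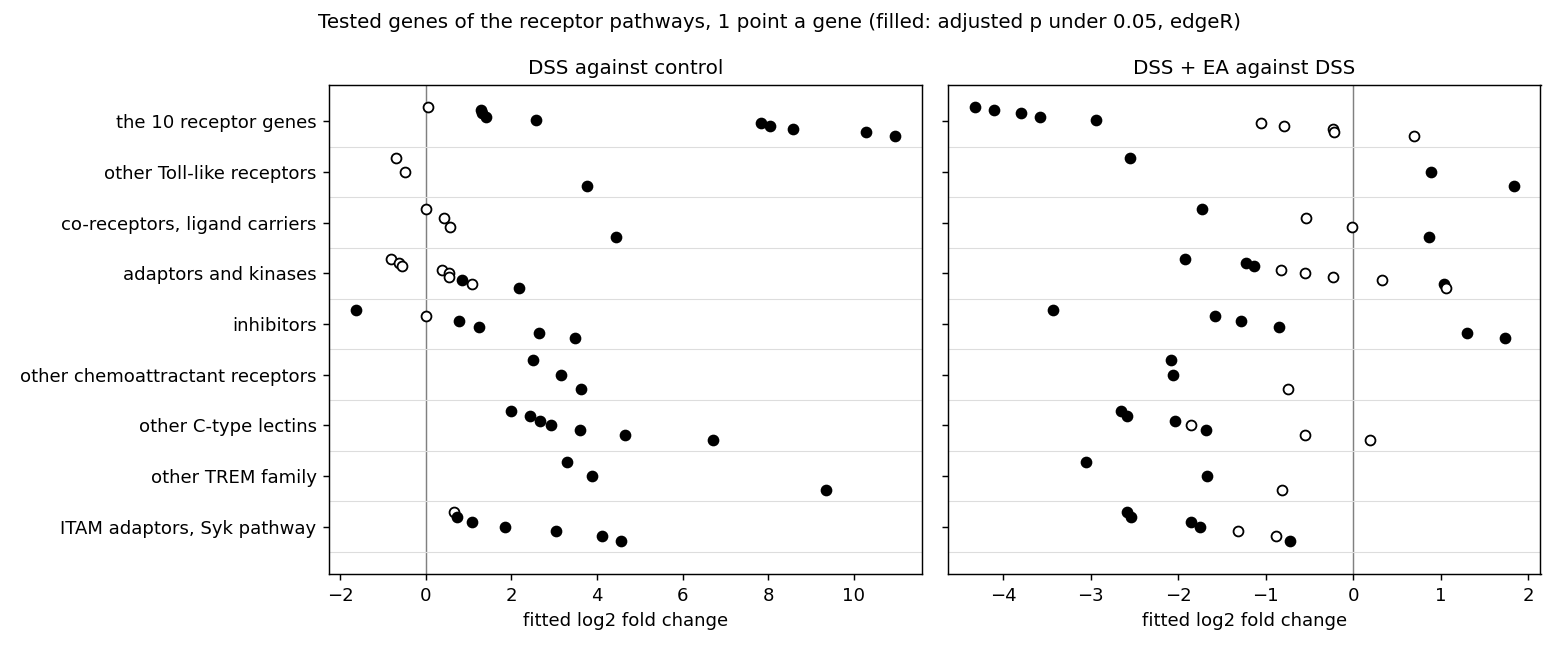
Fitted log2 fold change (horizontal axis) of each tested gene of the receptor pathways, by role, with DSS against control on the left and DSS + EA against DSS on the right; filled points passed an adjusted p under 0.05 in edgeR. The 7 other C-type lectins that were tested, of 13 listed, lay above 0 with DSS, while the adaptors, kinases and inhibitors lay on both sides of 0.

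Markers of cell types moved with these receptors. In whole colon tissue, fewer cells of a type and less RNA per cell cannot be told apart. The 12 neutrophil markers summed to 136, 160 and 23.8 CPM in the control mice, 4612, 25409 and 28031 CPM in the DSS mice, and 1494, 1216 and 1604 CPM in the DSS + EA mice. *S100a8* made up 60.9% of this sum over the 9 mice, while most of the sum in control mice was *Ly6g* (504, 449 and 43 counts). In the DSS + EA mice the mean was 699 CPM for *Ly6g* and 487 CPM for *S100a8*. All 9 tested neutrophil markers rose with DSS, 7 fell in the DSS + EA group, and 6 were above control there. Of the 9, 7 (all but *Ly6g* and *Retnlg*) were under the filter level in every control mouse, so the filter favored their rise, and *Ngp* and *Camp* also needed the DSS mice, which favored their fall. The granule genes *Mpo* and *Elane*, which mark neutrophil precursors, had 0 counts in every control mouse and at most 3 and 13 counts in any DSS mouse. *Ngp* had 269, 5816 and 2606 reads in the DSS mice and 11, 13 and 3 in the DSS + EA mice.

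The 12 monocyte and macrophage markers, of which *Lyz2* was the most abundant with 44.7% of the sum, came to 524, 575 and 553 CPM in the control mice, 1503, 1758 and 2748 CPM in the DSS mice, and 1119, 985 and 1156 CPM in the DSS + EA mice. Of these, 8 rose and *Cx3cr1* fell with DSS, and in the DSS + EA group 6 fell and *Cx3cr1* rose (log2 fold change 2.36, adjusted p = 0.0103, edgeR). The 6 general leukocyte markers had 59.0, 77.1 and 60.2 CPM in the control mice, 198, 632 and 1158 CPM in the DSS mice, and 156, 139 and 167 CPM in the DSS + EA mice. In the 3 lists of blood cells the DSS mice and the DSS + EA mice did not overlap. Of the epithelial markers 5 of 10 were lower with DSS, against 19.5% of all genes tested, and 3 of 10 were higher with EA than with DSS alone, against 17.2%. Fibroblast and endothelial markers rose in 6 of 7 genes with DSS and fell in 5 of 7 in the DSS + EA group. Of 3 tested B cell markers, *Cd79b* and *Ms4a1* were higher with EA than with DSS alone. *Ms4a1* passed the filter on low counts only with the DSS + EA mice, so its rise was favored and carries no weight. All 9 acinar markers were higher with EA than with DSS alone, but 8 of them were tested only through the DSS + EA mice and had to be higher. In the same comparisons 21.5% of all genes tested were higher with DSS, and 18.3% were lower with EA than with DSS alone. The part of these cell types in the results for the receptor genes was not tested.

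**Figure D4:**
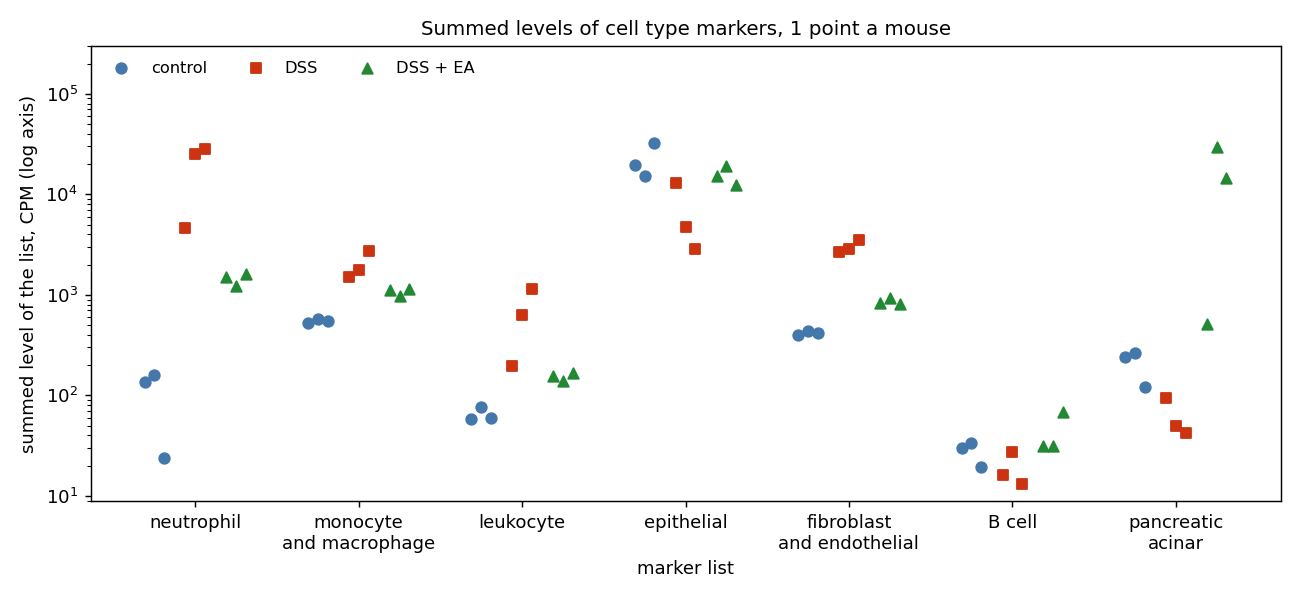
Summed level of each marker list in CPM on a log axis, with 1 point for each of the 9 mice. Neutrophil markers lay between 4612 and 28031 CPM in DSS mice and between 1216 and 1604 CPM in DSS + EA mice, and acinar markers were highest in DSS + EA mice 2 and 3.

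To set the receptors against the leukocyte signal of the same library, their counts were divided by those of *Ptprc* (CD45), a surface protein of leukocytes. *Trem1* had 103, 152 and 132 counts per 100 *Ptprc* counts in the DSS mice and 34.5, 25 and 14.0 in the DSS + EA mice. *Clec4d* had 297, 119 and 425 in the DSS mice and 50.9, 63.9 and 29.8 in the DSS + EA mice. For *Clec4e* the ratios were 369, 308 and 1243 with DSS and 184, 38.9 and 71.9 with DSS + EA, and for *Fpr2* they were 37.9, 61.2 and 154 with DSS and 18.2, 11.1 and 5.26 with DSS + EA. In these 4 genes the DSS + EA mice lay below all DSS mice per count of *Ptprc*. A sum of 6 leukocyte markers as denominator raised the log2 ratio of DSS + EA to DSS of all 10 genes alike, by 0.99 to 1.1, and this then held for *Clec4d* and *Trem1* only, *Clec4e* and *Fpr2* overlapped, and *Tlr4*, *Myd88* and *Clec7a* lay above all DSS mice. *Fpr1*, at 41.4, 49.4 and 252 with DSS and 40.0, 52.8 and 42.1 with DSS + EA, overlapped between the groups per *Ptprc*, as did *Tlr2*, *Tlr4*, *Cd14*, *Myd88* and *Clec7a*. *Ptprc* was itself counted 29, 170 and 182 times in the DSS mice and 55, 36 and 57 times in the DSS + EA mice, so each ratio rests on few counts. With 3 mice against 3 an exact two-sided permutation test cannot go below p = 0.1, and no test was made of these ratios. The share of all genes that are apart in such ratios was not computed, so the number of receptor genes apart carries no weight. *Fpr2* and *Trem1* passed the filter on low counts only with the DSS mice, which favored their fall.

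**Figure D5:**
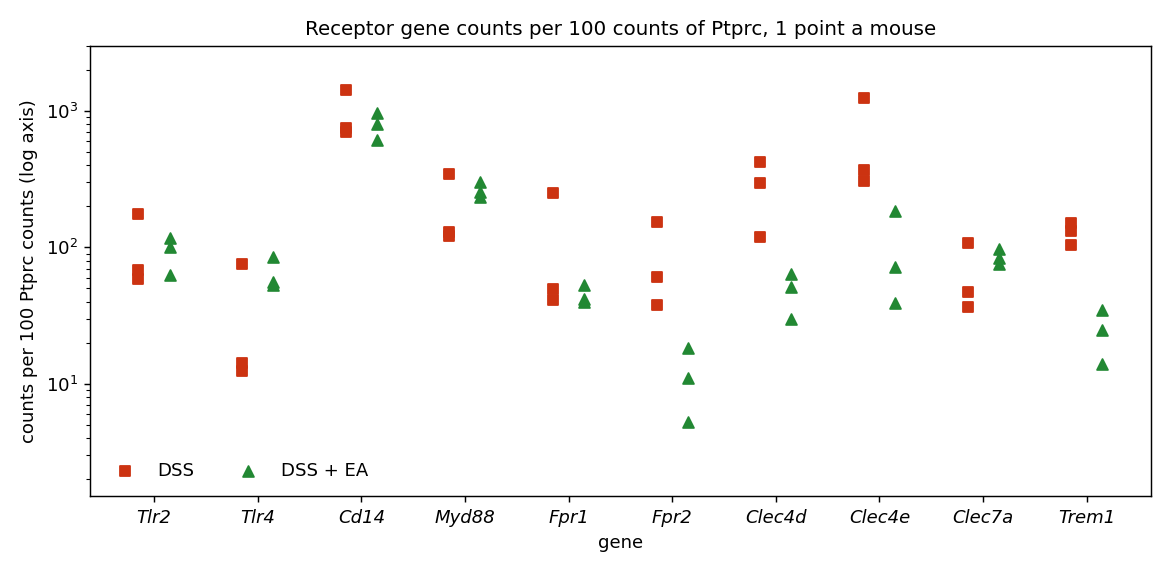
Counts of each receptor gene per 100 counts of *Ptprc* (log axis) in the 3 DSS mice and the 3 DSS + EA mice, with 1 point for each mouse. The groups were apart for *Fpr2*, *Clec4d*, *Clec4e* and *Trem1*, and overlapped for the other 6 genes; with 6 summed leukocyte markers in place of *Ptprc*, *Clec4e* and *Fpr2* overlapped too.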

How the data were processed

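Total RNA of each colon was turned into full-length cDNA, and 1 library per mouse was run on a PromethION instrument after 14 PCR cycles. The authors deposited raw counts of reads on each gene as whole numbers, and the build in the processing notes of the submitters is mm10. The aligner, the counting tool and the use of strand are not given in the sources used here. PCR copies were not told apart from molecules, so count intervals and the floor of 3 counts (0.652 to 1.15 CPM) cover counting error only. Nothing says that libraries beyond 1 per mouse were made, and p-values measure the spread between these mice.

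The quasi-likelihood F test of edgeR 4.0.16 was applied under R 4.3.3, after TMM normalization and filterByExpr by group, which kept 12566 genes. All 9 libraries entered a single model whose only term was the group, with the default prior count of glmQLFit. A gene was called at a Benjamini-Hochberg adjusted p under 0.05 over all genes tested. DEGs follow the thresholds of the methods of the study. Standard errors are the log2 fold change divided by the square root of F. DESeq2 1.42.0, other normalizations, filters and prior counts, the 2 groups compared alone, the replicate block and each mouse left out in turn were run as alternatives, and leaving out the 27 genes that reached 300 counts in a DSS + EA mouse but never passed 10 in a mouse of the other groups was added after seeing the data. The fits were tested on simulated counts. Python 3.11.15 with pandas 2.3.3, Biopython 1.88 and matplotlib 3.10.9 was used for positions (GENCODE M21), coding sequence alignment, motifs and figures.

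The members, the pathway and marker lists and the tests were chosen with earlier results of these data known. Named from each pathway list are the 3 genes with the smallest P in DSS against control and in DSS + EA against DSS, and genes called against the direction of most of their list. Genes whose change the filter on low counts favored were named for that reason. Others were chosen after their values were seen (Tlr6, Tlr7, Tlr12, Ly96, Tollip, Irak3, Syk, Clec10a, Clec4a3, Clec12a, Clec1b, Cd209a, Clec9a, Clec4b1). The 3 nearest genes in pattern have a symbol and a mean of at least 10 counts, and log2 CPM there used a prior count of 2; 1 of these genes is not reported here. Counts were not divided by length, so levels of the receptor genes were not compared with each other, and the share of a gene in a marker sum is a share of CPM. Proteins were not used here.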

Additional observations from a re-analysis of the deposited data

How the results depend on the processing

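Each gene had the same direction under every alternative in which it was called. Against control, the DSS group had 9 receptor genes called in every alternative at the adjusted threshold that kept all mice, and 8 to 9 when 1 mouse was left out. Between the DSS + EA and DSS groups 5 were called, 4 in DESeq2, in the fit of the 2 groups alone and with the replicate block, and 3 to 6 with 1 mouse left out (3 without DSS + EA mouse 3, 6 without DSS mouse 1). The gene lost was Fpr1 in DESeq2 (adjusted p = 0.0738), in the fit of the 2 groups alone (0.0866) and with the replicate block (0.136). Between the DSS + EA and control groups 0 were called in edgeR, 5 in DESeq2, 3 with no filter on low counts, 6 with only the 2 groups in the fit, 3 by the DEG thresholds, and 0 to 6 with 1 mouse left out (6 without DSS mouse 1 and 5 without DSS mouse 3). Leaving out a DSS mouse changes the shared spread, the normalization and the genes tested (12931 to 13341 in place of 12566), and the cause was not tested. Same-numbered mice are different animals, and their deviations correlated between -0.16 and 0.11, so the numbers do not pair the mice. With the replicate block 9, 4 and 0 receptor genes and 4543, 3829 and 364 genes were called in the 3 comparisons.

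Over all genes, 457 differed between the DSS + EA and control groups, 703 in DESeq2, 1149 with the 2 groups alone, and 110 to 772 with 1 mouse left out. By the DEG thresholds 1280, 806 and 261 genes passed in the 3 comparisons, in place of 5144, 4457 and 457. Among the 22099 genes that DESeq2 fitted, the median log2 fold change between the DSS + EA and DSS groups was -0.17. With the 6 summed leukocyte markers in place of Ptprc, the log2 ratio of the DSS + EA to the DSS group turned from -0.12 to 0.94 for Tlr2 and from -0.28 to 0.78 for Cd14, as part of a shift by 0.99 to 1.1 that all 10 genes shared. The DSS + EA and DSS mice then overlapped for Clec4e and Fpr2, and every DSS + EA mouse lay above every DSS mouse for Tlr4, Myd88 and Clec7a (log2 ratios 2.02, 1.47 and 1.48), which had overlapped per Ptprc. At 0 to 3 counts in control mice, the size of the rise of Fpr1, Fpr2, Clec4d, Clec4e and Trem1 is limited by depth.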
